A study of Homo sapiens with 19 samples.

Results

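Replication-dependent histone genes encode the linker histone H1 and the core histones H2A, H2B, H3 and H4 that package newly copied DNA. Here they were taken as the rows of the count table whose symbol begins with HIST1H, HIST2H, HIST3H or HIST4H and that held at least 20 reads summed over the 19 libraries. Of 73 such symbols 61 met this minimum, among 23367 genes in the table, with 5 genes of class H1, 13 of H2A, 20 of H2B, 11 of H3 and 12 of H4. All 61 passed the filter against low counts, so each of them was tested. The 2 RefSeq pseudogenes HIST2H2BA and HIST2H2BC are among them, with 38 and 67 reads in all, and HIST1H2BA, a testis gene, had 49. Just outside the minimum were HIST1H2AD with 14 reads and HIST1H1A and HIST1H2AA with 7 each. The other symbols left out were HIST1H4G with 2 reads and 8 symbols at 0.

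Messages of these genes are made mainly in S phase, when the nuclear protein NPAT drives their transcription. They end in a conserved stem-loop in place of a poly(A) tail, and stem-loop binding protein (SLBP) carries them through processing, translation and decay. A few of the genes also give longer, polyadenylated messages, which are known from cells that have stopped dividing.

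Expression was measured by RNA sequencing in SHEP TET21N, a neuroblastoma line with a MYCN transgene that doxycycline shuts off. MYCN-high cells grew without doxycycline and MYCN-low cells with it, so every comparison between the states also compares cells without and with doxycycline. Cells of both states received 0.1 µg/ml of doxorubicin, a topoisomerase II poison that breaks DNA, for 72 h, and were collected at that point or 3, 8 and 14 days after washout, or were left untreated. The labels call the cultures biological duplicates, here B and C, and MYCN-low cells at 14 days had the B library alone. Untreated cells of the later times are not among the libraries, so the time in culture and the treatment cannot be told apart. The line is 1 cell line with an engineered transgene, and bulk libraries cannot tell fewer cells with a message from less of it per cell.

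The libraries held 16547663 to 27664604 counted reads, ERCC reads included. Of the reads on genes without the ERCC RNAs, 0.043% to 0.735% fell on the 61 genes. MYCN averaged 683 CPM (counts scaled to the library's total) in untreated MYCN-high cells and 24.9 CPM in untreated MYCN-low cells. Mesenchymal markers such as VIM and FN1 were expressed in every group, while the adrenergic neuroblastoma markers PHOX2A, TH and DBH lay at or near 0 and HAND2 and GATA2 did not. Of 8 mesenchymal markers 0 were higher and 5 lower in MYCN-high than in MYCN-low cells untreated, and 1 was higher and 6 were lower at 8 days. Among all genes tested 35.1% differed untreated, and 23.4% were higher and 20.5% lower in MYCN-high cells at 8 days. FN1 averaged 98.3 CPM in MYCN-high and 1140 CPM in MYCN-low cells untreated, and 128 CPM in MYCN-high and 7315 CPM in MYCN-low cells at 8 days. Of 4 adrenergic markers tested, 0 differed untreated and 3 were higher in MYCN-high cells at 8 days. The part of these markers in the histone results was not tested. The B and C libraries of MYCN-high cells at 72 h stood apart from each other: 30 of the 61 genes were more than 2-fold apart between them, with a median log2 difference of -0.997 (B minus C). In the other pairs 0 to 6 of the genes were that far apart. Counts of histone genes called from the MYCN-high pair at 72 h, and its class medians, are therefore also given without each of its libraries. Over all genes tested the untreated MYCN-low pair differed most, with 1554 genes over 2-fold apart. There were 737 in MYCN-high cells at 72 h and 240 to 491 in the other pairs. The untreated MYCN-low pair is the baseline of every MYCN-low response and of every difference between responses. Added ERCC RNAs took 0.0116% to 0.537% of reads and differed by many fold between some duplicates, so levels are given relative to the other RNAs of a library.

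Promoters were printed for 4 genes whose responses are set against each other below. Each window runs from 250 bases before to 50 bases after the annotated start, from RefSeq on GRCh38.p14, and is written 5′ to 3′ on the gene's own strand. The capitals mark the CCAAT box, the octamer ATTTGCAT bound by POU2F1, TATAAA and the H1 box AAACACA, on either strand, and capital runs merge where motifs overlap.

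HIST1H2BJ, chr6:27132746-27133045, minus strand: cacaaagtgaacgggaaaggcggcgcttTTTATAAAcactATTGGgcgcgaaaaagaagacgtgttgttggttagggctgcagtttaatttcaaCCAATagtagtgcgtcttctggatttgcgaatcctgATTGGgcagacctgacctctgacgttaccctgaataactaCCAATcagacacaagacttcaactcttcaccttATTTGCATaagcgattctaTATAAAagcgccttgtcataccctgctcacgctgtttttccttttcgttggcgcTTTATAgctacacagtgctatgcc
HIST1H2BK, chr6:27146809-27147108, minus strand: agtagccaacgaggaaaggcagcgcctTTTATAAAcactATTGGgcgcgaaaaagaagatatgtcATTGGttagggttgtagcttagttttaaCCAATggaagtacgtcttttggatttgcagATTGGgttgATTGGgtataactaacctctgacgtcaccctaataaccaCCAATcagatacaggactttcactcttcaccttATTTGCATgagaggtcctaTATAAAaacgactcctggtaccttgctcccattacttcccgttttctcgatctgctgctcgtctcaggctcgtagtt
HIST3H2A, chr1:228457824-228458123, minus strand: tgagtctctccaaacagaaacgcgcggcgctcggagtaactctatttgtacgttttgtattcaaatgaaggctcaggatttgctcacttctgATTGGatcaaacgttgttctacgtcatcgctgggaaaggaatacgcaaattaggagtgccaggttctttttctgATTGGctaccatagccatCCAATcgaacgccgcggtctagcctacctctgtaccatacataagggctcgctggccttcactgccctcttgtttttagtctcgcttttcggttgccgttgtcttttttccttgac
HIST1H1B, chr6:27867539-27867838, minus strand: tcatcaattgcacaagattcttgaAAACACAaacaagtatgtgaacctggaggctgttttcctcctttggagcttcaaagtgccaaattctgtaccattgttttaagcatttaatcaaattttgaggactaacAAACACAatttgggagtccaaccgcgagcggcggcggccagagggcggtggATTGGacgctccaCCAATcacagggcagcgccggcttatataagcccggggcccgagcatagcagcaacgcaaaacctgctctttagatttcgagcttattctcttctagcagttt

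Of the 54 genes with a window, 87.0% held a CCAAT on some strand, against 35.7% of 27305 promoters of the same length. Every window of the H1, H2A, H2B and H3 classes had it, but only 3 of 10 H4 windows did. The octamer ATTTGCAT was in 9 of 12 H2A and 14 of 18 H2B windows, against 1.8% of all promoters, and many of these genes start back to back, so their windows overlap. All 5 H1 windows held AAACACA, as did 5.76% of all promoters. TATAAA was in 64.8% of the windows and in 12.0% of all promoters. The E-box CACGTG, which MYC family proteins can bind, was in 0 of 54 windows and in 7.43% of all promoters. These are matches of letters and say nothing on binding in these cells.

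The 3′ stem-loop is shown for 4 of the genes known for polyadenylated messages and for the H3 gene HIST1H3G, to show how annotated ends lie around it. It is the run of 16 bases in capitals in the lines below, and it was searched on the transcript strand of GENCODE release 29 with any base at position 10 and the other letters as shown. It was found in 17 of the 61 genes. Many annotated transcripts stop at the coding end, so no match says only that the letters are not in the annotated sequence.

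HIST1H2BD-202: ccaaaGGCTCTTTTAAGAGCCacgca
HIST1H2BC-202: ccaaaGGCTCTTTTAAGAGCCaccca
HIST1H2AC-202: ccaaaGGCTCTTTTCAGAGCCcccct
HIST2H2BE-201: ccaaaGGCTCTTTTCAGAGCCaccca
HIST1H3G-201: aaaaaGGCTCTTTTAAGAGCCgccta

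The HIST1H2BD-202 transcript stops 39 bases after the stem-loop, while HIST1H2BD-201, at 789 bases, does not contain it. HIST1H2BC likewise has a transcript with the stem-loop and another, HIST1H2BC-201, without it. HIST2H2BE-201 and HIST1H2AC-202 run on for 1729 and 1114 bases past the stem-loop. The counts do not separate these ends.

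Relative to the other RNAs of a library, histone messages of every class were lower after 72 h of doxorubicin in both states. Only in MYCN-high cells did the summed level later lie within or above the range of the untreated libraries. The summed level of the 61 genes in MYCN-high cells was 5449 and 6350 CPM untreated, 624 and 990 CPM at 72 h, 1552 and 1858 CPM at 3 days, 5671 and 6966 CPM at 8 days and 7565 and 7308 CPM at 14 days. In MYCN-low cells it was 6650 and 5527 CPM untreated, 663 and 574 CPM at 72 h, 484 and 433 CPM at 3 days, 578 and 617 CPM at 8 days and 663 CPM in the B library at 14 days. Both states therefore held similar totals untreated and at 72 h, and did not overlap from 3 days on. The group mean at 72 h was 7.31-fold lower than untreated in MYCN-high cells and 9.85-fold lower than untreated in MYCN-low cells. Scaled to ERCC reads, in relative units, the MYCN-high total was 6918 (B) and 3188 (C) untreated and 5385 (B) and 524 (C) at 72 h. The B library at 72 h thus lay within the untreated range, and by class it lay below that range for H3 alone. The MYCN-high C library and both MYCN-low libraries at 72 h lay below untreated in every class.

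**Figure D1:**
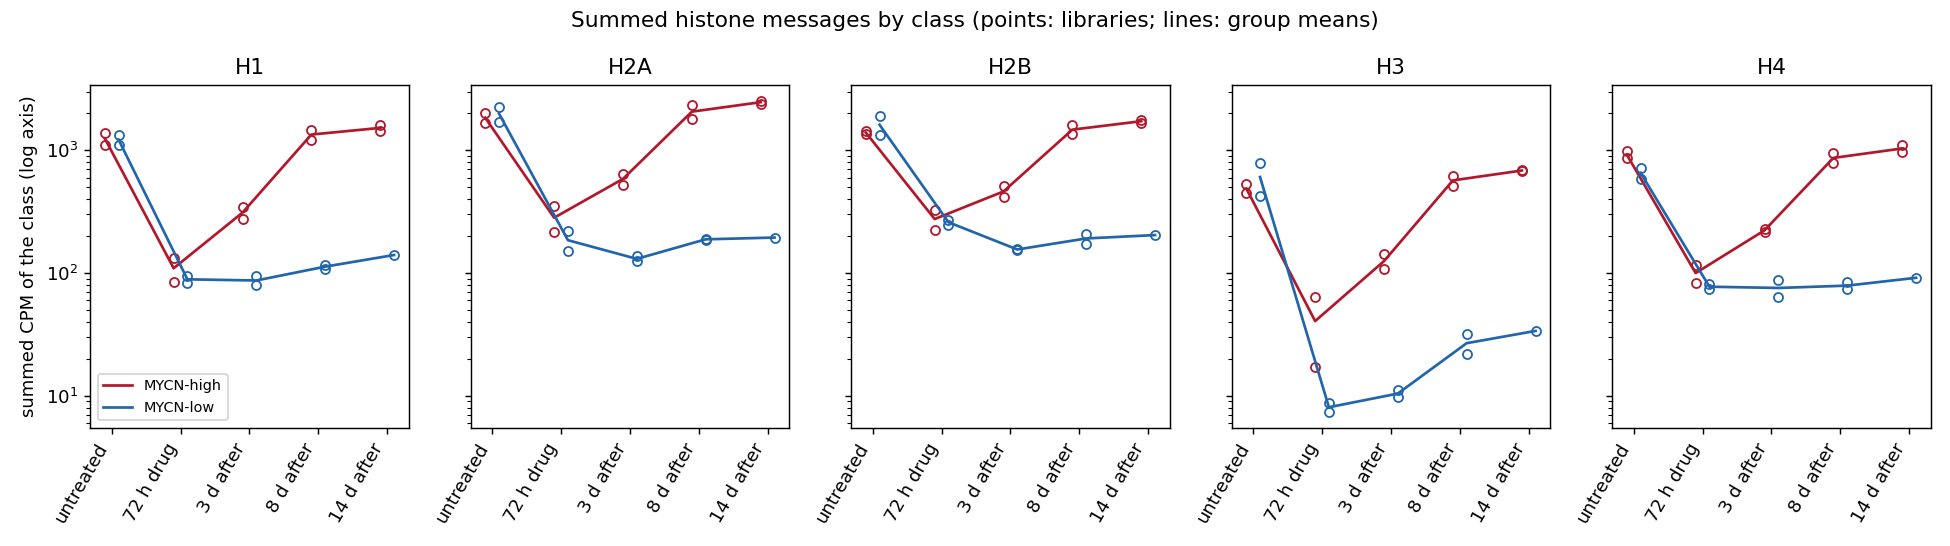
Summed CPM of the genes of each class on a log axis at each time, with MYCN-high in red and MYCN-low in blue, points for libraries and lines through group means. All classes are lower at 72 h in both states, and from 3 days on the MYCN-high points lie above the MYCN-low points, with H3 at 125 CPM against 10.4 CPM on average at 3 days. Scaled to ERCC reads, the MYCN-high B library at 72 h lies below the untreated range for H3 alone.

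Single genes were tested with edgeR's quasi-likelihood test, with Benjamini-Hochberg adjustment over all 14793 genes tested and a threshold of 0.05. In MYCN-high cells at 72 h 57 of the 61 genes fell and 0 rose against untreated cells, where 17.9% of all genes fell and 18.3% rose. In MYCN-low cells 56 fell and 0 rose, where 12.1% of all genes fell and 10.2% rose. The median log2 fold change of the 61 genes was -3.37 in MYCN-high and -4.70 in MYCN-low cells, against 0.03 and 0.01 over all genes tested. Without the B library of MYCN-high cells at 72 h 55 genes fell in that state, and without its C library also 55. Scaled to the ERCC RNAs in place of the libraries' own RNA, the median of all genes shifted by 2.37 in MYCN-high and 0.52 in MYCN-low cells, and 0 and 9 of the 61 genes passed. Measured from that shift the median of the 61 genes was lower by a log2 difference of -4.21 in MYCN-high and -4.49 in MYCN-low cells. Without subtracting it, 12 of the 61 genes lay above 0 in MYCN-high and 3 in MYCN-low cells, against 1 in each by the libraries' own RNA. Among the named genes followed under ERCC scaling, HIST1H1C, HIST1H2AC, HIST2H2AC, HIST3H2A, HIST1H2BD, HIST1H2BK, HIST2H2BE, HIST1H4E and HIST4H4 turned to log2 fold changes from 0.13 to 2.10 in MYCN-high cells. HIST1H2BK turned to 0.063 in MYCN-low cells. The falls given for these genes below are therefore relative to the other RNAs.

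The class medians at 72 h were -4.84 for H1, -3.36 for H2A, -3.22 for H2B, -3.98 for H3 and -3.35 for H4 in MYCN-high cells. The H2B median was -2.66 with genes at 0 reads set to a floor of 3 reads over the group. Without the B library at 72 h the MYCN-high medians were -4.02 for H1, -2.74 for H2A, -2.51 for H2B, -3.08 for H3 and -3.05 for H4. Without the C library they were -5.78 for H1, -4.17 for H2A, -4.24 for H2B, -5.26 for H3 and -3.79 for H4. Of the 61 fold changes in MYCN-high cells, 25 moved by over 1.5 times without B and 35 without C, and 0 turned sign. In MYCN-low cells they were -3.85 for H1, -4.70 for H2A, -3.98 for H2B, -6.23 for H3 and -3.94 for H4. As summed CPM, H3 was 12.1-fold lower than untreated in MYCN-high cells and 75.2-fold lower than untreated in MYCN-low cells. Its sum in MYCN-high cells at 72 h was 17.2 CPM in the B and 63.9 CPM in the C library, so that it was 7.65-fold lower without B and 28.4-fold lower without C. H3 messages made up 2.75% and 6.45% of histone CPM in MYCN-high cells at 72 h, against 8.24% and 8.32% untreated. In MYCN-low cells they made up 1.11% and 1.52% at 72 h, against 11.8% and 7.69% untreated. The 2 untreated MYCN-low libraries thus differed from each other in this share, yet both lay far above the 72 h pair.

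**Figure D2:**
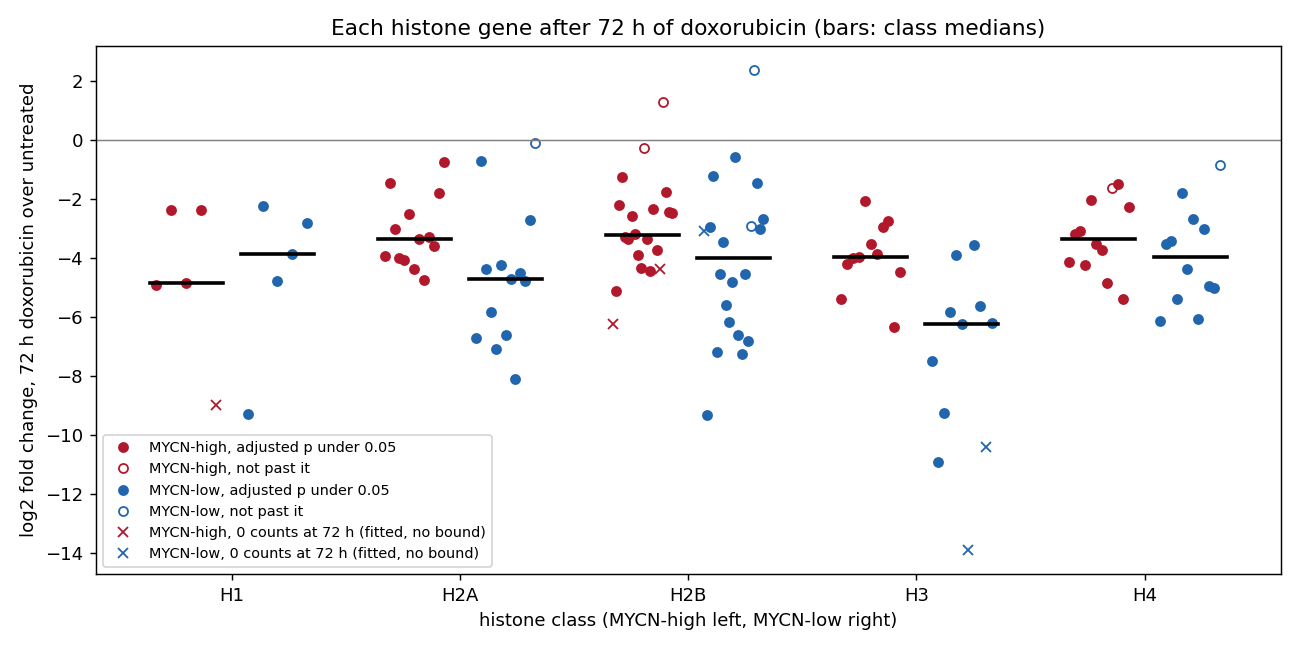
Log2 fold change of each histone gene at 72 h over untreated, by class, with MYCN-high left and MYCN-low right, filled points past the threshold, open points not, and crosses for fitted values of genes at 0 reads at 72 h, which are no bound. Bars mark class medians, and the H3 medians are -3.98 in MYCN-high and -6.23 in MYCN-low cells. Scaled to ERCC RNAs, 12 genes in MYCN-high and 3 in MYCN-low cells lie above 0.

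Among linker histones, HIST1H1B, which encodes H1.5, had 2.80 and 28.6 CPM in MYCN-high cells at 72 h, against 429 and 501 CPM untreated. It had 0.974 and 0.483 CPM in MYCN-low cells at 72 h, against 446 and 470 CPM untreated. The treated libraries did not overlap with the untreated ones in either state, and the C library of MYCN-high cells at 72 h lay well above the B library. The log2 fold change was -4.90 (SE 0.67, adjusted p = 4.55e-05) in MYCN-high and -9.29 (SE 0.87, adjusted p = 1.50e-06) in MYCN-low cells. In MYCN-high cells it was -4.02 without 72 h B and -7.37 without 72 h C (adjusted p = 9.89e-06 and 1.63e-07). HIST1H1C, which encodes H1.2 and is known for polyadenylated messages, had log2 fold changes of -2.36 in MYCN-high and -2.22 in MYCN-low cells. HIST1H1D, which encodes H1.3, had -4.84 in MYCN-high and -4.77 in MYCN-low cells, and HIST1H1E, which encodes H1.4, had -2.36 in MYCN-high and -3.85 in MYCN-low cells. HIST1H1T, the testis linker histone, was at 0 reads in MYCN-high cells at 72 h and so at least 45.0-fold lower than its 3.03 CPM untreated. Its untreated libraries held 1.02 CPM (B) and 5.04 CPM (C), and against each alone it was at least 15.2-fold and 74.8-fold lower.

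Of the H3 genes, all 11 fell in both states. HIST1H3B had 0.976 and 8.99 CPM in MYCN-high cells at 72 h, against 84.0 and 97.2 CPM untreated, and 0.0974 and 0.0483 CPM in MYCN-low cells at 72 h, against 199 and 103 CPM untreated. HIST1H3C had log2 fold changes of -3.98 in MYCN-high and -9.24 in MYCN-low cells. HIST1H3G had 6 and 130 reads in MYCN-high cells at 72 h and 0 reads in both MYCN-low libraries. It was at least 1258-fold lower than untreated in MYCN-low cells at 72 h, counted against a floor of 3 reads over the group. The untreated libraries held 139 CPM (B) and 44.0 CPM (C), and against the C library alone it was at least 604-fold lower. HIST1H3J, also at 0 reads there, was at least 112-fold lower. HIST1H3I had log2 fold changes of -2.72 in MYCN-high and -5.61 in MYCN-low cells.

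In H2A, all 13 genes fell in MYCN-high cells and 12 of 13 in MYCN-low cells. HIST1H2AJ had 7.76 and 21.1 CPM in MYCN-high cells at 72 h, against 285 and 313 CPM untreated. In MYCN-low cells it had 2.87 and 2.70 CPM at 72 h, against 271 and 268 CPM untreated. All 4 treated libraries lay far below the untreated ones. HIST1H2AG had log2 fold changes of -4.01 in MYCN-high and -5.82 in MYCN-low cells. Those of HIST1H2AE were -3.02 in MYCN-high and -4.38 in MYCN-low cells, and those of HIST2H2AC were -1.81 in MYCN-high and -2.70 in MYCN-low cells. HIST3H2A, on chromosome 1, was the H2A gene that did not pass in MYCN-low cells: it had 19.9 and 12.3 CPM at 72 h, against 17.4 and 17.3 CPM untreated, and the groups overlapped. In MYCN-high cells it had 46.4 and 39.2 CPM at 72 h, against 54.2 and 88.8 CPM untreated, a log2 fold change of -0.74 (SE 0.23, adjusted p = 0.0182). That call was lost without the C library at 72 h (adjusted p = 0.121) or untreated (adjusted p = 0.320).

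In H4, 11 of 12 genes fell in each state. HIST1H4L had 1.06 and 7.08 CPM in MYCN-high cells at 72 h, against 160 and 173 CPM untreated, and 5.94 and 2.22 CPM in MYCN-low cells at 72 h, against 126 and 134 CPM untreated. HIST1H4H had log2 fold changes of -3.71 in MYCN-high and -2.68 in MYCN-low cells. Those of HIST1H4C were -3.07 in MYCN-high and -3.43 in MYCN-low cells, and those of HIST1H4E were -2.03 in MYCN-high and -1.81 in MYCN-low cells. The genes that did not pass were HIST1H4J in MYCN-high cells (log2 fold change -1.63) and HIST4H4 in MYCN-low cells (-0.85). HIST4H4, which lies on chromosome 12 away from the clusters, fell by 2.27 in MYCN-high cells.

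In H2B, 17 of 20 genes fell in each state, and the genes that did not pass included HIST1H2BK in MYCN-high cells. HIST1H2BK had 68.4 and 66.8 CPM in MYCN-high cells at 72 h, against 83.2 and 80.7 CPM untreated, a log2 fold change of -0.28 (SE 0.16, adjusted p = 0.207). In MYCN-low cells it had 73.7 and 70.5 CPM at 72 h, against 128 and 88.1 CPM untreated, a log2 fold change of -0.58 (SE 0.16, adjusted p = 0.0197). The 72 h libraries lay below the untreated ones in both states, but the call in MYCN-low cells was lost without untreated B (adjusted p = 0.190), 72 h B (adjusted p = 0.0773) or 72 h C (adjusted p = 0.0971). HIST1H2BI, in the same cluster, had log2 fold changes of -3.90 in MYCN-high and -6.15 in MYCN-low cells. The pseudogenes HIST2H2BA and HIST2H2BC did not pass in either state, nor HIST1H2BA in MYCN-low cells, and each of these had at most 12 reads in any library.

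HIST1H2BJ, whose promoter is printed beside that of HIST1H2BK and holds the same set of motifs, had 2.54 and 11.3 CPM in MYCN-high cells at 72 h, against 139 and 140 CPM untreated. Its log2 fold change was -4.34 (SE 0.45, adjusted p = 4.06e-06) in MYCN-high and -4.81 (SE 0.46, adjusted p = 1.73e-06) in MYCN-low cells. Of the stretches of 50 bases in the HIST1H2BK transcript 22.6% were shared with another histone symbol, and of those of HIST1H2BJ 4.65% were, so reads of these genes could in part be split or lost.

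The genes known for polyadenylated messages were HIST1H1C, HIST1H2AC, HIST1H2BC, HIST1H2BD, HIST1H2BK and HIST2H2BE, a list chosen from background knowledge with earlier results of these data known. At 72 h 5 of 6 fell in MYCN-high cells and 6 of 6 in MYCN-low cells, and each had a smaller fold change than the median of its class. Their median log2 fold change was -1.61 in MYCN-high and -1.33 in MYCN-low cells. HIST1H2BD had 56.6 and 51.2 CPM in MYCN-high cells at 72 h, against 126 and 129 CPM untreated, a log2 fold change of -1.24 (SE 0.18, adjusted p = 6.48e-05). In MYCN-low cells it had 77.0 and 79.7 CPM at 72 h, against 201 and 160 CPM untreated, a log2 fold change of -1.20 (SE 0.18, adjusted p = 0.000147). HIST1H2AC had log2 fold changes of -1.45 in MYCN-high and -0.72 in MYCN-low cells, and the call in MYCN-low cells was lost without untreated B (adjusted p = 0.0748) or 72 h C (adjusted p = 0.140). HIST2H2BE had log2 fold changes of -1.76 in MYCN-high and -1.46 in MYCN-low cells, and HIST1H2BC had -2.20 in MYCN-high and -2.95 in MYCN-low cells.

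These 6 genes made up 14.1% and 14.1% of histone CPM in untreated MYCN-high cells, 43.8% and 27.9% at 72 h, 23.9% and 21.2% at 3 days, 15.2% and 14.7% at 8 days and 13.5% and 13.4% at 14 days. In MYCN-low cells their share was 16.9% and 17.1% untreated, 55.9% and 58.8% at 72 h, 47.1% and 48.5% at 3 days, 35.0% and 36.9% at 8 days and 32.9% at 14 days. The share was thus higher at 72 h in both states. At 8 and 14 days it lay between 13.4% and 15.2% in MYCN-high cells and still above every untreated library in MYCN-low cells. It is a share of reads, in which a longer message counts for more, and no test was made of it.

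**Figure D3:**
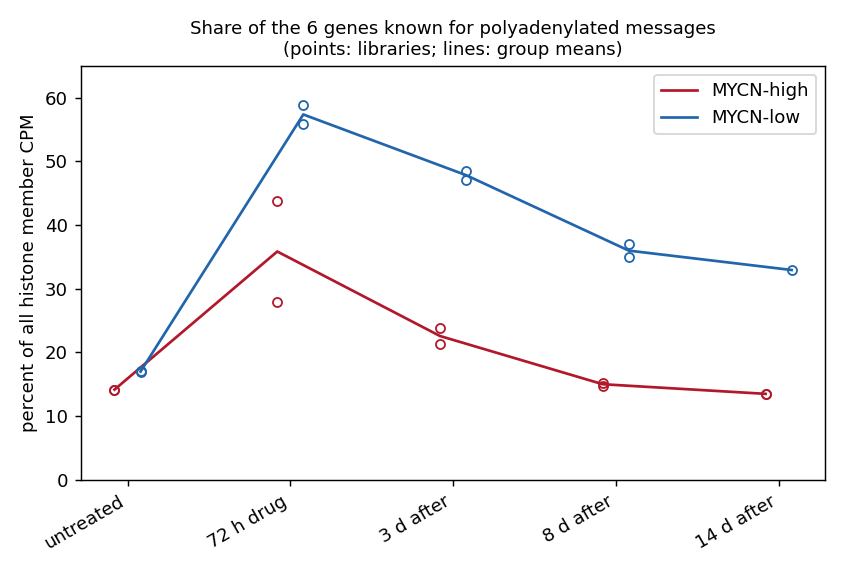
Share of histone CPM taken by the 6 genes known for polyadenylated messages, with MYCN-high in red and MYCN-low in blue, points for libraries and lines through group means. At 14 days the MYCN-high libraries lie at 13.5% and 13.4% and the MYCN-low library at 32.9%.

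H2A and H2B genes often sit head to head and share the stretch between their starts, so 9 such pairs with starts within 500 bases were compared as a description. In MYCN-high cells at 72 h the partners' log2 fold changes differed by a median of 0.45, and 7 of 9 pairs were within 1. Without the C library at 72 h the median was 1.36 and 4 of 9 pairs were within 1, and without the B library it was 0.38 with 7 of 9. In MYCN-low cells the median was 2.23, and 2 of 9 pairs were within 1. HIST1H2AH and HIST1H2BK, 331 bases apart, were farthest apart: HIST1H2AH had log2 fold changes of -4.06 in MYCN-high and -7.08 in MYCN-low cells, beside -0.28 and -0.58 of its partner. HIST1H2AH had 3.05 and 15.5 CPM in MYCN-high cells at 72 h, against 150 and 159 CPM untreated. HIST3H2A and HIST3H2BB, 234 bases apart on chromosome 1, had log2 fold changes of -0.74 and -2.47 in MYCN-high and of -0.11 and -2.68 in MYCN-low cells. HIST1H2AJ and HIST1H2BM stayed close, at -4.38 and -4.44 in MYCN-high and -6.59 and -7.25 in MYCN-low cells.

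**Figure D4:**
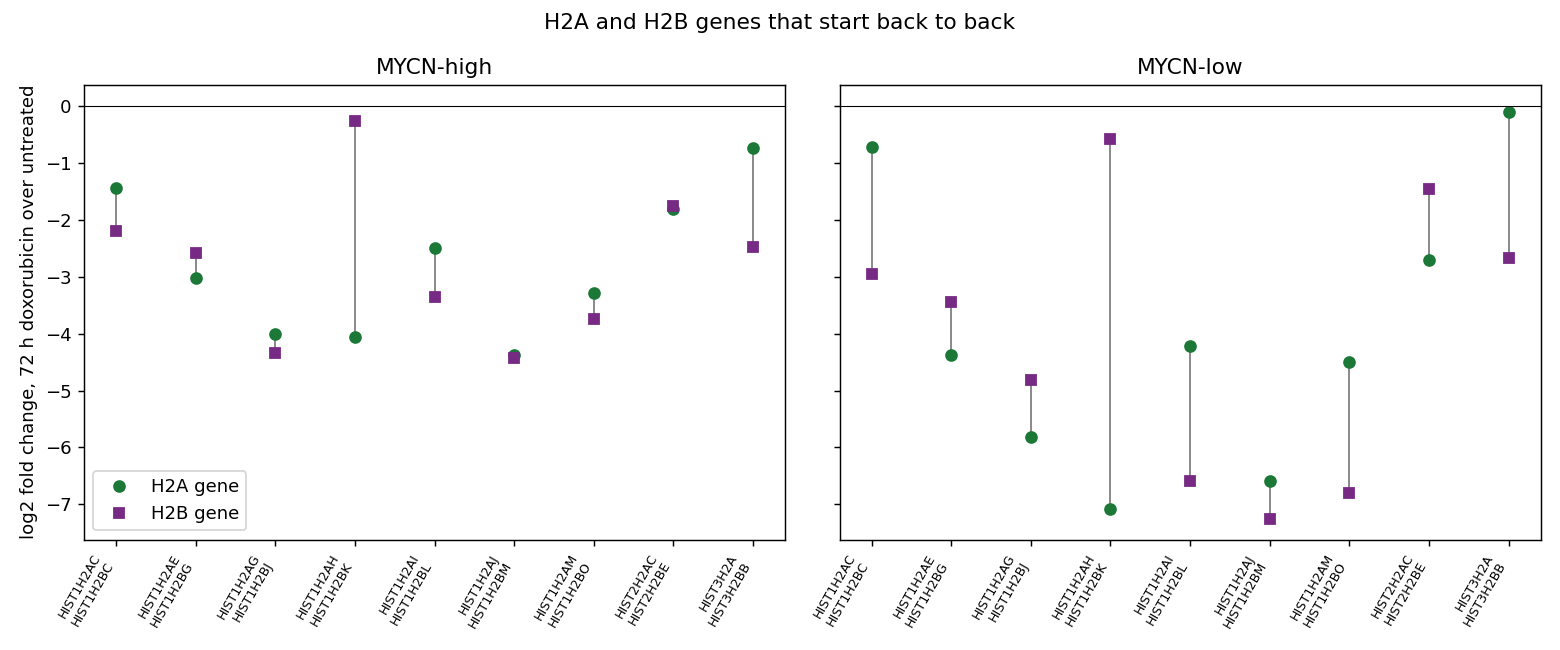
Log2 fold change at 72 h over untreated of the H2A gene (circle) and the H2B gene (square) of 9 head-to-head pairs, MYCN-high on the left and MYCN-low on the right. The pair of HIST1H2AH and HIST1H2BK has the longest line in both states, at -4.06 and -0.28 in MYCN-high cells.

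Before treatment few histone genes differed between MYCN-high and MYCN-low cells. Of the 61 genes 4 were higher and 2 lower in untreated MYCN-high cells, a smaller share than the 35.1% of all genes that differed. HIST3H2A had 54.2 and 88.8 CPM in MYCN-high cells and 17.4 and 17.3 CPM in MYCN-low cells, a rise of 2.04 on the log2 scale (SE 0.24, adjusted p = 3.35e-05). The groups did not overlap, and the gene was also higher in MYCN-high cells at 72 h, by 1.41 (SE 0.23, adjusted p = 0.000369). HIST4H4 was higher by 1.79, HIST1H3A by 1.02 and HIST1H4H by 0.74 in MYCN-high cells, while HIST1H2BD and HIST2H2BE had log2 fold changes of -0.50 and -0.61. The count was 1, HIST3H2A, without MYCN-low untreated B, 11 without MYCN-low untreated C and 2 without MYCN-high untreated C. The direction of HIST1H2BD and HIST2H2BE turned under ERCC scaling, to 0.26 and 0.13.

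At 72 h 33 genes were higher and 3 lower in MYCN-high than in MYCN-low cells, where 15.5% of all genes were higher and 14.4% lower. The H3 class had a median log2 fold change of 2.61, with 9 of 11 genes higher, and the H2A class 1.33, with 9 of 13 higher. These medians were 3.31 for H3 and 1.70 for H2A without MYCN-high 72 h B, and 1.74 for H3 and 0.63 for H2A without MYCN-high 72 h C. The genes lower in MYCN-high cells were HIST1H2AC, HIST1H2BD and HIST2H2BE, all of the polyadenylated list, with log2 fold changes of -0.72, -0.54 and -0.92. The call of HIST1H2BD was lost without any of the 4 libraries at 72 h (adjusted p from 0.0581 to 0.165), and that of HIST1H2AC without MYCN-low B or MYCN-high C (adjusted p = 0.149 and 0.102). HIST2H2BE had 21.5 and 20.3 CPM in MYCN-high cells and 44.9 and 34.0 CPM in MYCN-low cells. HIST1H3G was at least 44.5-fold higher in MYCN-high cells, where MYCN-low cells had 0 reads. Its MYCN-high libraries held 0.254 CPM (B) and 6.22 CPM (C), so that it was at least 3.50-fold higher by B alone and 85.5-fold by C alone. Its call was lost without MYCN-high 72 h C (adjusted p = 0.210) or MYCN-low 72 h B (adjusted p = 0.0552). The counts rest on few libraries: 14 genes passed without MYCN-high 72 h C, 18 without MYCN-low 72 h B and 44 without MYCN-high 72 h B. Under ERCC scaling 0 passed, and HIST1H2AC, HIST1H2BD and HIST2H2BE turned to 2.00, 2.05 and 1.73, less than the shift of 2.51 in the median of all genes. Measured from the median of all genes, that of the 61 genes was 1.29 higher, and 0.776 higher under ERCC scaling.

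From 3 days on nearly every gene was higher in MYCN-high cells. At 3 days 55 of 61 genes were higher, where 17.0% of all genes were, and at 8 days 59 were higher and 1 lower, where 23.4% were higher and 20.5% lower. At 14 days 58 genes were higher, where 21.4% of all genes were. The median log2 fold change of the 61 genes was 2.85 at 3 days, 3.93 at 8 days and 4.09 at 14 days, and from 2.68 to 4.14 above the median of all genes under ERCC scaling, where 0 of the 61 genes passed at 3, 8 or 14 days. H3 was the class with the largest summed fold at each of these times, 12.0-fold at 3 days, 21.2-fold at 8 days and 20.3-fold at 14 days. HIST1H1B had 600 and 636 CPM in MYCN-high cells at 14 days and 21.6 CPM in the MYCN-low library, a log2 fold change of 4.84 (SE 0.91, adjusted p = 0.000619). HIST1H2AC, HIST1H4E and HIST1H4F did not pass at 3 days, besides HIST1H2BA and both pseudogenes. The single gene lower in MYCN-high cells at 8 days was the pseudogene HIST2H2BC, with 0 reads in MYCN-high cells and 0.295 and 0.207 CPM in MYCN-low cells.

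The return was tested within each state. In MYCN-high cells 53 genes were still lower at 3 days than untreated, where 15.7% of all genes were lower, and the genes that did not pass included HIST1H2BK and HIST3H2A at -0.23 and -0.39. From 72 h to 3 days 21 genes rose, where 1.71% of all genes rose. That count was 0 without MYCN-high 72 h B, 39 without MYCN-high 72 h C, 4 without MYCN-high 3 days B and 0 without MYCN-high 3 days C. From 3 to 8 days 51 genes rose, where 6.63% of all genes rose, or 24 without 3 days B and 29 without 8 days C. HIST1H1B had 80.3 and 112 CPM at 3 days, and 479 and 598 CPM at 8 days.

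At 8 days 0 genes differed from untreated MYCN-high cells by edgeR, where 8.58% of all genes did. At an unadjusted p under 0.05 there was 1, and DESeq2 called 1. That gene was HIST4H4, at -1.77 (SE 0.54, adjusted p = 0.0541). At 14 days 0 genes differed, as did 0% of all genes, with 3 at an unadjusted p under 0.05 and 0 by DESeq2. The median log2 fold change of the 61 genes at 14 days was 0.35, with 54 of them above 0, beside -0.01 over all genes.

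In MYCN-low cells the lower level held to the end of sampling. At 3 days 58 genes were lower than untreated, where 12.7% of all genes were lower, at 8 days 57, where 14.6% were, and at 14 days 55, where 10.7% were. From 72 h to 3 days 0 genes changed by edgeR, where 0.0541% of all genes did, with 15 at an unadjusted p under 0.05 and 4 lower by DESeq2. From 3 to 8 days HIST1H1B, HIST1H2AJ and HIST1H2BM rose, where 0.662% of all genes did. HIST1H1B had 13.2 and 24.6 CPM at 8 days, against 2.04 and 2.02 CPM at 3 days, a log2 fold change of 3.22 (SE 0.70, adjusted p = 0.0462). That count was 0 without MYCN-low 3 days B, 3 days C or 8 days C, 1 without any single MYCN-high library of the untreated, 8-day or 14-day groups, 14 without either MYCN-high library at 72 h, and 8 by DESeq2. HIST1H3G, at 0 reads at 72 h, had 3.92 CPM at 14 days, against 139 and 44.0 CPM untreated.

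Whether the states responded differently was tested in a contrast of its own, which sets the fold change over untreated in MYCN-high cells against that in MYCN-low cells. At 72 h 18 genes had fallen less in MYCN-high cells and 0 had fallen more, where 6.63% of all genes were higher and 4.06% lower in this contrast. Of these 6 were of H3, 6 of H2B, 3 of H2A, 2 of H1 and 1 of H4. HIST1H3B differed by 6.71 (SE 1.25, adjusted p = 0.00631) and HIST1H1B by 4.39 (SE 0.99, adjusted p = 0.0146) on the log2 scale. In MYCN-low cells at 72 h HIST1H3B held 0.0974 and 0.0483 CPM, where 3 reads over the group are 0.0727 CPM. The size of its difference is therefore uncertain. HIST1H1B did not pass without MYCN-low 72 h B, MYCN-low 72 h C or MYCN-high 72 h C (adjusted p from 0.0545 to 0.0648) and its difference was 1.94 without MYCN-high 72 h C. The difference of HIST1H3B was 4.41 without MYCN-high 72 h C (adjusted p = 0.0216). The count ran from 4 without MYCN-high 72 h C or MYCN-low 72 h B to 37 without MYCN-high 72 h B. It was 6 without MYCN-low untreated B, 33 without MYCN-low untreated C, 10 and 8 without MYCN-high untreated B and C, and 7 without MYCN-low 72 h C. Of the polyadenylated list, 0 of 6 were in this count, and their differences ran both ways. They ranged from -0.73 for HIST1H2AC (SE 0.28, adjusted p = 0.0982) to 0.74 for HIST1H2BC (SE 0.37, adjusted p = 0.198). HIST1H2BD lay nearest 0, at -0.04 (SE 0.25, adjusted p = 0.944). Measured from the median of all genes, the median difference of the 61 genes at 72 h was 1.31. Under ERCC scaling it was 0.483, and 0 of the 61 genes passed.

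At 3 days 47 genes had a higher response in MYCN-high cells, where 5.10% of all genes did, at 8 days 55, where 4.41% did, and at 14 days 55, where 4.87% did. The median difference of the 61 genes was 2.60 at 3 days, 3.91 at 8 days and 4.19 at 14 days. All 11 H3 genes were in the count at each of these times.

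The genes that make, carry and load histones were taken from lists chosen with the members. Of 32 genes of DNA replication, 32 fell at 72 h in MYCN-high cells with a median log2 fold change of -2.96, where 17.9% of all genes fell. In MYCN-low cells 31 fell with a median of -3.09, where 12.1% of all genes fell. In MYCN-low cells all 32 were lower at 3 and 8 days and 31 at 14 days, where 12.7%, 14.6% and 10.7% of all genes were. In MYCN-high cells 0 differed from untreated at 8 and 14 days, where 8.58% and 0% of all genes did. Against untreated cells of the same state the S-phase genes were thus lower in the same groups as the histone genes. Between the untreated states 17 of the 32 were higher in MYCN-high cells and 0 lower, with a median log2 fold change of 0.69. Of the 61 histone genes 4 were higher and 2 lower there, with a median of -0.07, where 35.1% of all genes differed. The part of the S-phase genes in the histone result was not tested. At 72 h 4 of the 32 had fallen less in MYCN-high cells and 4 had fallen more, where 6.63% of all genes were higher and 4.06% lower.

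Of 18 genes that transcribe or process histone messages, 10 fell and 1 rose at 72 h in MYCN-high cells, and 7 fell in MYCN-low cells. Over all genes 17.9% fell and 18.3% rose in MYCN-high cells, and 12.1% fell and 10.2% rose in MYCN-low cells. SLBP, which binds the stem-loop, had 57.9 and 57.1 CPM in MYCN-high cells at 72 h, against 142 and 173 CPM untreated, and 44.3 and 49.5 CPM in MYCN-low cells at 72 h, against 78.5 and 99.0 CPM untreated. Its log2 fold change was -1.45 (SE 0.18, adjusted p = 2.34e-05) in MYCN-high and -0.92 (SE 0.18, adjusted p = 0.00206) in MYCN-low cells. NPAT had log2 fold changes of -0.72 in MYCN-high and -0.59 in MYCN-low cells. CDK2, which with cyclin E phosphorylates NPAT, had -2.43 in MYCN-high and -2.68 in MYCN-low cells, and CCNE2, a cyclin E, had -3.65 in MYCN-high and -6.13 in MYCN-low cells. CCNE2 averaged 0.484 CPM in MYCN-low cells at 72 h. CCNE1, the other cyclin E, averaged 31.6 CPM untreated and 16.7 CPM at 72 h in MYCN-high cells, and 11.3 and 8.87 CPM in MYCN-low cells. The difference between responses at 72 h was -0.57 for CCNE1 and 2.49 for CCNE2, and neither passed. CASP8AP2, a component of histone locus bodies, fell by 1.58 in MYCN-high cells and had a log2 fold change of -0.23 (adjusted p = 0.450) in MYCN-low cells. HINFP, an activator of H4 genes, was the one that rose in MYCN-high cells, by 0.79 (SE 0.23, adjusted p = 0.0131).

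Of 19 histone chaperones and partners 11 fell and 1 rose at 72 h in MYCN-high cells, and 8 fell and 2 rose in MYCN-low cells. The shares over all genes were 17.9% lower and 18.3% higher in MYCN-high cells, and 12.1% lower and 10.2% higher in MYCN-low cells. NASP, a chaperone of H1 and H3 with H4, had log2 fold changes of -2.54 in MYCN-high and -1.43 in MYCN-low cells, and CHAF1A, which loads H3 and H4 at forks, had -2.65 in MYCN-high and -2.94 in MYCN-low cells. SUPT6H rose in MYCN-high cells by 0.47, and ATRX and NAP1L1 in MYCN-low cells by 0.84 and 0.55. Of the 12 replication-independent histones 10 were tested, and 6 fell in MYCN-high and 5 in MYCN-low cells. H2AFZ, which encodes H2A.Z, had log2 fold changes of -3.67 in MYCN-high and -2.88 in MYCN-low cells, and H2AFX, a DNA damage mark once phosphorylated, had -2.58 in MYCN-high and -3.63 in MYCN-low cells. H3F3B, which encodes H3.3, fell by 0.81 in MYCN-high cells and had a log2 fold change of 0.29 (adjusted p = 0.272) in MYCN-low cells. H1F0, the linker histone of resting cells, did not pass in either state.

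Other RNAs without a poly(A) tail were listed to set beside the histone messages, and 8 of 12 were in the table and tested. At 72 h 6 of 8 rose in MYCN-high cells, with a median log2 fold change of 1.03, and in MYCN-low cells 0 rose and TERC fell by 1.67. Among all genes 18.3% rose and 17.9% fell in MYCN-high cells, and 10.2% rose and 12.1% fell in MYCN-low cells. RPPH1, the RNA of RNase P, had 1957 and 2199 CPM in MYCN-high cells at 72 h, against 845 and 857 CPM untreated, and 1131 and 1519 CPM in MYCN-low cells at 72 h, against 2318 and 789 CPM untreated. By the same test 0 of these 8 RNAs fell in MYCN-high cells, and TERC alone fell in MYCN-low cells. Their bearing on the histone messages was not tested.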

How the data were processed

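RNA of 19 cultures was sequenced. Per the labels' protocols ERCC RNAs were added, ribosomal RNA was removed and libraries were made with a ScriptSeq kit, while the labels' molecule field names polyA RNA; how far messages without a poly(A) tail were retained is not given. The deposited values are raw read counts per gene, which the authors made with STAR 2.4.0h1 and HTSeq on hg19, per the submitters' processing notes; the gene annotation, the strand setting and the treatment of reads that map to several copies are not given in the sources used here. Near-identical copies make single genes uncertain: of the 50-base stretches of a GENCODE release 29 transcript, more than 50% were shared with another histone symbol in 7 of the 61 genes and none in 30. The 7 were HIST1H2AI, HIST1H2AJ, HIST1H2AM, HIST1H4J, HIST1H4K, HIST2H2BA and HIST2H3D, at 62.3% to 100%. No library column was identical to another.

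Counts were fitted with edgeR 4.0.16 (R 4.3.3): TMM, filterByExpr by group, 1 mean per group over all 19 libraries, and quasi-likelihood tests of 21 contrasts over 14793 genes with Benjamini-Hochberg adjustment at 0.05. The fit had 9 residual degrees of freedom. CPM use TMM-scaled totals, and class levels are sums of CPM. Duplicates are cultures the labels call biological, and p-values measure the spread between them alone. For MYCN-low cells at 14 days there is 1 library, whose spread is taken from the rest of the libraries. The code was tested on simulated data. The histone genes, the gene lists and the tests were chosen with earlier results of these data known. Named are, per class, the 4 genes with the highest mean CPM, the polyadenylated list, genes called against the majority and genes that failed where 5 or fewer of a class did; partners in head-to-head pairs and a few single genes were added after their values were seen. Promoters are RefSeq windows on GRCh38.p14, matched by symbol for 54 of the 61 genes, and no hg19 coordinate is used. Alternatives were other scalings, no filter, a minimum of 100 reads, DESeq2 1.42.0, a replicate block, pseudogenes left out (chosen after seeing the data) and each library left out in turn. Figures were drawn with matplotlib 3.10.9.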

Additional observations from a re-analysis of the deposited data

Results flagged for a closer look

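The response to doxorubicin was taken relative to untreated cells of the same state. Its difference between MYCN-high and MYCN-low cells was itself tested (edgeR's quasi-likelihood test, Benjamini-Hochberg adjusted). By this test 18 of the 61 histone genes differed at 72 h, 47 at 3 days, 55 at 8 days and 55 at 14 days, all higher in MYCN-high cells. Of all genes 6.63%, 5.10%, 4.41% and 4.87% were higher at these times. The count at 72 h rested on few libraries, and MYCN-low cells at 14 days had the B library alone. Among genes with more than 3 reads in every group compared, the widest difference was 5.25 (log2) for HIST1H3C at 72 h, 6.62 for HIST1H3G at 3 days, 6.12 for HIST1H2BE at 8 days and 6.24 for HIST1H4A at 14 days. In MYCN-low cells HIST1H3C held 0.0974 and 0.241 CPM at 72 h, and HIST1H3G 0.362 and 0.0506 CPM at 3 days. HIST1H2BE held 0.196 and 0 CPM there at 8 days and HIST1H4A 0.204 CPM in the single 14-day library. In that state 3 reads over the group are 0.0727 CPM at 72 h, 0.0716 CPM at 3 days, 0.0608 CPM at 8 days and 0.153 CPM at 14 days. The size of each of these differences is therefore uncertain. HIST1H3C at 72 h did not pass without MYCN-low 72 h B (difference 4.78, adjusted p = 0.0753) or MYCN-high 72 h C (difference 2.66, adjusted p = 0.0732). The groups of 2 were too small for a test of single libraries that stand apart.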

How the results depend on the processing

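ERCC scaling changed most. It moved 39 of the 40 log2 ratios of class sums by more than their spread between duplicates. Under it 0 of the 61 genes passed between the states untreated, at 72 h, 3, 8 or 14 days, in MYCN-high cells at 72 h or 3 days against untreated, in MYCN-low cells at 3, 8 or 14 days against untreated, in the difference between responses at any time, or between 72 h and 3 days or 3 and 8 days in MYCN-high cells and 3 and 8 days in MYCN-low cells; in MYCN-low cells at 72 h 9 passed. It also turned the sign of 26 of the values of named genes. For MYCN-high against MYCN-low these were 0.26 for HIST1H2BD, 0.43 for HIST1H2BK and 0.13 for HIST2H2BE untreated, and 2.05 for HIST1H2BD, 2.00 for HIST1H2AC and 1.73 for HIST2H2BE at 72 h. For MYCN-high cells at 72 h against untreated they were 0.14 for HIST1H1C, 0.13 for HIST2H2AC, 1.20 for HIST1H2BD, 2.10 for HIST1H2BK, 0.44 for HIST1H4E, 1.11 for HIST1H2AC, 0.71 for HIST2H2BE, 1.89 for HIST3H2A and 0.19 for HIST4H4. At 3 days they were 0.20 for HIST1H1C, 0.25 for HIST2H2AC, 0.62 for HIST1H2BD, 1.34 for HIST1H2BK, 0.24 for HIST1H4E, 0.83 for HIST1H2AC, 0.51 for HIST2H2BE, 1.36 for HIST3H2A and 0.037 for HIST3H2BB. HIST1H2BK in MYCN-low cells at 72 h was 0.063, and HIST3H2A in the difference at 72 h was 1.60; HIST3H2A in MYCN-high cells at 3 days ran from -0.68 to 0.017 with single libraries left out, the positive value being without untreated C. ERCC shares differed widely between duplicates (2730 and 39507 reads in MYCN-high cells at 72 h); the cause was not tested. With no filter on low counts 14 genes passed between untreated states, 1 in MYCN-high cells at 8 and 1 at 14 days, 36 in the difference at 72 h, 42 between 72 h and 3 days in MYCN-high cells, and 14 between 72 h and 3 days and 25 between 3 and 8 days in MYCN-low cells. DESeq2's Wald test gave 1 in MYCN-high cells at 8 days, and 4 between 72 h and 3 days and 8 between 3 and 8 days in MYCN-low cells; its size factors in edgeR gave 1 in MYCN-high cells at 8 days. The labels do not say that letters pair cultures, and deviations of same-lettered libraries correlated at 0.039 to 0.444 over all genes; with the letter as a replicate block 1 gene passed in MYCN-high cells at 8 days, and the other 20 counts were within 1.5 times. Leaving out each library in turn gave 1 to 11 genes between untreated states, 14 to 44 between states at 72 h, 0 to 1 in MYCN-high cells at 8 days, 4 to 37 in the difference at 72 h, 0 to 39 between 72 h and 3 days and 24 to 53 between 3 and 8 days in MYCN-high cells, and 0 to 2 between 72 h and 3 days and 0 to 14 between 3 and 8 days in MYCN-low cells. The ranges of the response of MYCN-high cells were 55 to 58 at 72 h and 38 to 53 at 3 days, and that of MYCN-low cells at 72 h was 52 to 56; without the single MYCN-low 14-day library its comparisons have no value. No symbol among the 61 genes contains PS, so leaving those out changed nothing. Depth limits genes with few reads, such as the pseudogenes.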
